A study of Mus musculus with 6 samples.

Results

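The genes described here are 8 genes of cytosolic and endosomal RNA sensing in MIN6-4N cells, a mouse insulinoma line labelled as pancreatic beta cells. They are Ddx58, Ifih1, Dhx58 and Tlr3, which encode the sensors, and Mavs, Traf3, Tbk1 and Irf3, which encode the adaptors, the kinase and the transcription factor downstream. Members were taken by symbol: every probe set whose array annotation gives exactly 1 symbol, that of a member, was used. This gave 123 of the 212097 probe sets with 1 symbol, and 8 of 20416 genes. The sensors hold 63 of these probe sets and the other members 60.

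Double-stranded RNA and RNA with a free triphosphate end are signs of viral infection. In the cytosol they are bound by the helicases RIG-I (encoded by Ddx58, now called Rigi) and MDA5 (Ifih1), which switch on the mitochondrial adaptor MAVS, while the receptor TLR3 meets double-stranded RNA in endosomes and signals through the adaptor TICAM1. Both routes use the ubiquitin ligase TRAF3 and the kinase TBK1 to phosphorylate IRF3, which then induces type I interferon. Interferon raises the RNA of the sensors themselves, and in beta cells MDA5 and TLR3 are known for their part in responses to enteroviruses. Arrays measure RNA, not phosphorylation or ligand binding.

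The tested group carried a stably integrated pcDNA3.1 plasmid with mouse Meg3, an imprinted long non-coding RNA, and the other group the same plasmid without it. Each group was 1 clone grown in 3 cultures, and the labels name the Meg3 clone inconsistently. The descriptions of all 6 samples also speak of sorting, which no protocol describes, so it is unclear whether the RNA came from a sorted fraction. All cells were nucleofected, selected with G418 for 5 weeks at 750 µg/ml, and kept in G418 at 500 µg/ml with 15% serum. With 1 clone per group, Meg3 and anything else in which the clones differ cannot be told apart, and p-values here measure only how cultures of a clone vary.

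Array medians of the deposited log2 values lay between 7.02 and 7.19. Meg3 replicate 1 and vector replicate 2 stood apart: around the median of the other arrays, their values scattered with SDs of 0.629 and 0.846, where the rest had 0.425 to 0.476. The transfected gene Meg3 read 7.24, 7.91 and 7.53 in the Meg3 clone, against 5.63, 6.00 and 5.88 in the vector clone. All 10 measured beta cell markers lay above the median of all gene values (6.65), and so did the alpha cell gene Gcg, picked once values were seen, at 12.66 in the Meg3 clone and 12.82 in the vector clone. A gene is called here when its limma p, adjusted by Benjamini-Hochberg over 20416 genes, is under 0.05.

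All 4 sensors read lower in the Meg3 clone, as 48.4% of all genes did, and none of them overlapped between the clones. Over all genes the groups lay apart in this direction for 6.39% of genes. Of the 4, Ddx58 and Ifih1 were called lower, where 0.465% of all genes were. Their log2 differences ran from -1.13 to -0.54, with a median of -0.93 against 0.01 over all genes. The 4 downstream genes had differences from -0.28 to -0.01 (median -0.14), and 0 of them were called by limma, nor did any have an unadjusted p under 0.05.

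Ddx58 encodes RIG-I, the helicase that binds short RNA with a triphosphate end. Its gene value, the mean log2 value of its probe sets, was 7.05, 7.24 and 7.20 in the 3 Meg3 cultures, against 8.31, 8.21 and 8.20 in the 3 vector cultures. The highest Meg3 culture lay 0.96 below the lowest vector culture. The means were 7.16 ± 0.10 in the Meg3 clone and 8.24 ± 0.06 in the vector clone (SD, n = 3 each), a 2.11-fold lower level (log2 difference -1.08, SE 0.11; limma adjusted p = 0.00713). It ranked 35 of 20416 genes by p. The call was lost without Meg3 replicate 2 (limma adjusted p = 0.0560) or Meg3 replicate 3 (0.0638), with differences of -1.11 and -1.09. It was also lost with the brightest probe set alone (-1.04, limma adjusted p = 0.176) or the median of the probe sets (-0.98, 0.0517).

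Ifih1 encodes MDA5, the helicase that binds long double-stranded RNA. It read 5.76, 5.56 and 5.86 in the Meg3 cultures, against 6.81, 6.96 and 6.80 in the vector cultures. The clones lay 0.95 apart at their nearest values. The means were 5.73 ± 0.15 in the Meg3 clone and 6.86 ± 0.09 in the vector clone (SD, n = 3 each), a 2.19-fold lower level (log2 difference -1.13, SE 0.13; limma adjusted p = 0.00809). The call was lost without Meg3 replicate 2 (limma adjusted p = 0.0627), Meg3 replicate 3 (0.0585) or vector replicate 3 (0.0503). With the probe sets brighter than the median of all probe sets alone, which are 4 of its 20, the difference was -0.73 (limma adjusted p = 0.253), with the brightest alone -0.62 (0.785) and with the median of all 20 -1.44 (0.0581), none of them called.

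The promoter windows of Ddx58 and Ifih1 are shown because these are the called members and both hold the core of an interferon-stimulated response element. The windows of Tlr3, a sensor that missed the threshold, and Tbk1, a kinase gene that was not called, are set beside them. Sequences are from RefSeq (GRCm38.p6), 250 bases before to 50 after the annotated start, 5′ to 3′ on the strand of the gene, and capitals mark matches to GAAA, any 2 bases and GAAA again, or to its reverse complement (TTTC, any 2 bases, TTTC). The windows lie at chr4:40239776-40240075 for Ddx58, chr2:62646206-62646505 for Ifih1, chr8:45410331-45410630 for Tlr3 and chr10:121586745-121587044 for Tbk1, all on the minus strand.
Ddx58: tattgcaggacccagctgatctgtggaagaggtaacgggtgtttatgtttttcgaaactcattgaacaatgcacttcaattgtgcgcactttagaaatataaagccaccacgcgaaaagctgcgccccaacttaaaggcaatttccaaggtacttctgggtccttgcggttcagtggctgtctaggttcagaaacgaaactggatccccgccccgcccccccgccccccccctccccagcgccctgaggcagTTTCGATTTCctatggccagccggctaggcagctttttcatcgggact
Ifih1: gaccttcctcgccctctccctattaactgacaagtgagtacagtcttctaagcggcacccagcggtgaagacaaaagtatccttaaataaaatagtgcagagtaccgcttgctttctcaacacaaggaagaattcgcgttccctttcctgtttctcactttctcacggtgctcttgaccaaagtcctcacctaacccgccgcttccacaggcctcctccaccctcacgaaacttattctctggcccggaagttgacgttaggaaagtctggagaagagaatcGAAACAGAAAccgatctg
Tlr3: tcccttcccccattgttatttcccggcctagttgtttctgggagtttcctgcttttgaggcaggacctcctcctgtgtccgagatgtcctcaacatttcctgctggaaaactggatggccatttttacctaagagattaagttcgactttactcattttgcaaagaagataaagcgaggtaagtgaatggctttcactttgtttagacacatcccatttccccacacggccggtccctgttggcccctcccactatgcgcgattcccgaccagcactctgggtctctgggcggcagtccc
Tbk1: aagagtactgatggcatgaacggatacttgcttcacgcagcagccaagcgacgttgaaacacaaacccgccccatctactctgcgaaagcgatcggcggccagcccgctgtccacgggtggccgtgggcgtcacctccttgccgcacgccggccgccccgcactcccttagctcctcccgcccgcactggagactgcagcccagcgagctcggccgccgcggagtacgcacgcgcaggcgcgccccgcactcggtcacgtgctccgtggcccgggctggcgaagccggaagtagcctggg

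Of the 7 members with a window in the table, 2 held this longer motif on either strand, as did 3.44% of all 32851 windows. The match lay 3 to 12 bases from the annotated start in Ddx58, on the opposite strand, and 33 to 42 bases from it in Ifih1, on the strand of the gene, counting the start base as 1. A shorter core of interferon regulatory factor sites, AANNGAAA or TTTCNNTT, was searched after the first result was seen. It lies wholly within the longer motif, so its presence in the windows of Ddx58 and Ifih1 was fixed by the first search. It occurred in 3 of the 7 member windows, 2 of them fixed in this way, and in 23.9% of all windows. Among the windows of members without the longer motif, that of Tlr3 held it, and those of Mavs, Traf3, Tbk1 and Irf3 did not. In Tlr3 the shorter core lay 59 to 52 bases before the start. This core is common over all windows, so the Tlr3 match is no result about the sensors. G and C made up 53.3% of the window of Ddx58, 49% for Ifih1 and 51% for Tlr3. The shares were 64% for Mavs, 84% for Traf3, 69% for Tbk1 and 58.3% for Irf3, with a median of 52.7% over all windows. Both motifs are rich in A and T, and the part of base composition in the matches was not tested. Such matches describe letters, not binding, and Dhx58 is named only.

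Dhx58 encodes LGP2, the helicase of the family that lacks the signalling domain and modulates RIG-I and MDA5. It read 5.23, 5.34 and 5.23 in the Meg3 cultures, against 5.81, 5.87 and 5.74 in the vector cultures, and the clones lay 0.40 apart. The means were 5.27 ± 0.06 in the Meg3 clone and 5.81 ± 0.07 in the vector clone (SD, n = 3 each), a log2 difference of -0.54 (SE 0.11, 95% interval -0.79 to -0.29; limma adjusted p = 0.108). It was not called over all genes. It was dim, with 32.6% of genes below it in the vector clone, and none of its 13 probe sets lay above the median of all probe sets.

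Tlr3 encodes the endosomal receptor for double-stranded RNA. It read 5.61, 5.57 and 5.80 in the Meg3 cultures, against 6.26, 6.57 and 6.52 in the vector cultures. No Meg3 culture reached the lowest vector culture, which was 0.46 above the highest of them. The means were 5.66 ± 0.12 in the Meg3 clone and 6.45 ± 0.16 in the vector clone (SD, n = 3 each), a log2 difference of -0.79 (SE 0.13, 95% interval -1.10 to -0.48; limma adjusted p = 0.0506). It lay at the threshold: adjusted p-values ran from 0.00170 to 0.459 over the alternatives, and without vector replicate 2 it was called (limma adjusted p = 0.0365).

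**Figure D1:**
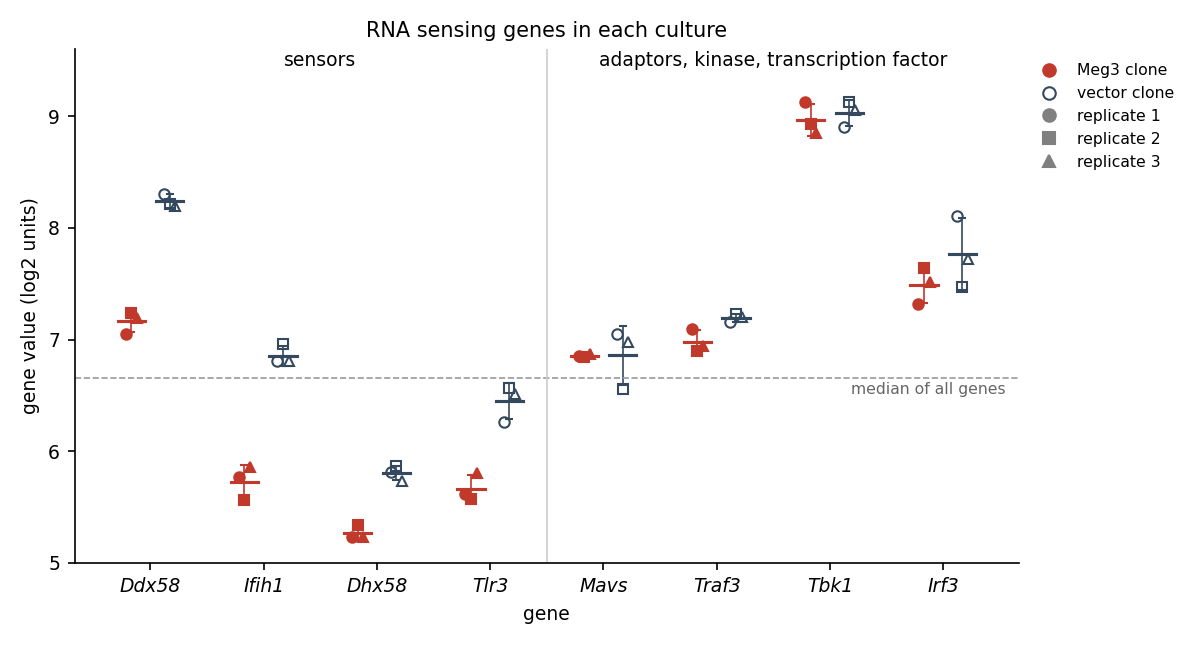
Gene values (log2 units, vertical axis) of the 8 genes in each culture, with the Meg3 clone in filled red on the left of each pair and the vector clone in open blue on the right; bars are means with SD over 3 cultures and the dashed line is the median of all gene values, 6.65. The 4 sensors do not overlap between clones, whereas Mavs, Tbk1 and Irf3 do, and Traf3 is parted by 0.06.

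Mavs encodes the mitochondrial adaptor that both helicase sensors engage. It read 6.85, 6.84 and 6.87 in the Meg3 cultures, against 7.05, 6.56 and 6.97 in the vector cultures. The Meg3 values lay inside the range of the vector clone. The log2 difference was -0.01 (SE 0.15, 95% interval -0.35 to 0.34; limma adjusted p = 1.00), and its sign changed with centring of the arrays (0.0036), so it has no direction. Vector replicate 2, an array that stood apart, gave the lowest value.

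Traf3 encodes the ubiquitin ligase that joins the adaptors to the kinases, and in GRCm38.p6 it lies on chromosome 12 with 13 protein-coding genes between it and Meg3. It read 7.10, 6.89 and 6.94 in the Meg3 cultures, against 7.16, 7.23 and 7.20 in the vector cultures. The clones did not overlap, but the gap was only 0.06. The log2 difference was -0.22 (SE 0.11, 95% interval -0.48 to 0.05; limma adjusted p = 0.865).

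Tbk1 encodes the kinase that phosphorylates IRF3. It read 9.13, 8.93 and 8.85 in the Meg3 cultures, against 8.90, 9.13 and 9.06 in the vector cultures, and the clones overlapped over most of their range. The log2 difference was -0.06 (SE 0.13, 95% interval -0.36 to 0.23; limma adjusted p = 1.00). Its interval excludes a fall of the size measured for Ddx58 or Ifih1. The same holds for Mavs and Traf3 and, with the widest interval of the 4, for Irf3. The interval of Irf3 (-0.69 to 0.14) does include a fall of the size measured for Dhx58 (-0.54).

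Irf3 encodes the transcription factor that TBK1 activates and is present before infection in most cells. It read 7.32, 7.64 and 7.51 in the Meg3 cultures, against 8.11, 7.47 and 7.72 in the vector cultures. The clones overlapped because vector replicate 2 read below Meg3 replicates 2 and 3. The log2 difference was -0.28 (SE 0.18, 95% interval -0.69 to 0.14; limma adjusted p = 0.980). It was -0.11 without vector replicate 1 (limma adjusted p = 0.995) and -0.43 without vector replicate 2 (0.274), so its size rests on single vector cultures.

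Levels of different genes cannot be ranked on an array, because probe sets differ in brightness. Against the median of all gene values, 1 of 4 sensors (Ddx58) and 4 of 4 downstream genes had a mean above 6.65 over the 6 arrays. In the Meg3 clone 58.9% of genes lay below Ddx58, and 74.6% did in the vector clone. For Ifih1 these shares were 30.8% in the Meg3 clone and 53.6% in the vector clone. The mean of the 4 sensors minus the mean of the 4 downstream genes was -1.68, -1.65 and -1.52 in the Meg3 cultures, against -1.01, -0.69 and -0.93 in the vector cultures. These values describe the chosen genes and carry no test. In bulk RNA, fewer cells expressing a gene and less RNA per cell cannot be told apart.

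Each member was read by 10 to 23 probe sets. For Ddx58 all 20 probe sets were lower in the Meg3 clone, by -1.77 to -0.33 on the log2 scale, and for Tlr3 all 10 were, by -1.24 to -0.04. Ifih1 had 19 of 20 lower (-3.08 to 0.03) and Dhx58 12 of 13 (-1.11 to 0.06). Over all probe sets, 49.2% were lower. Differences of a sensor's probe sets were thus mostly of 1 sign, and they varied in size.

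The clones did not overlap, with Meg3 lower, in 13 of 20 Ddx58 probe sets, 10 of 20 for Ifih1, 5 of 10 for Tlr3 and 3 of 13 for Dhx58. This held for 5.61% of all probe sets. Among downstream genes it held in 0 of 10 for Mavs, 1 of 16 for Traf3, 1 of 23 for Tbk1 and 2 of 11 for Irf3. Summed, that is 31 of 63 sensor probe sets and 4 of 60 downstream ones, and 0 of the 123 lay apart in the other direction, where 6.00% of all probe sets did. Probe sets of a gene share its RNA and are not replicates.

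Tested singly with limma, 0 of the 123 member probe sets were called after adjustment over 212097, where 0.00377% of all probe sets were. At an unadjusted p under 0.05, 31 sensor probe sets were lower, against 3.13% of all probe sets, and 0 of the 60 downstream ones were lower or higher. The lowest adjusted p was 0.105, for a Ddx58 probe set that averaged 8.04 in the Meg3 clone and 9.79 in the vector clone. The largest difference (-3.08) was that of an Ifih1 probe set that averaged 4.79 in the Meg3 clone and 7.87 in the vector clone.

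**Figure D2:**
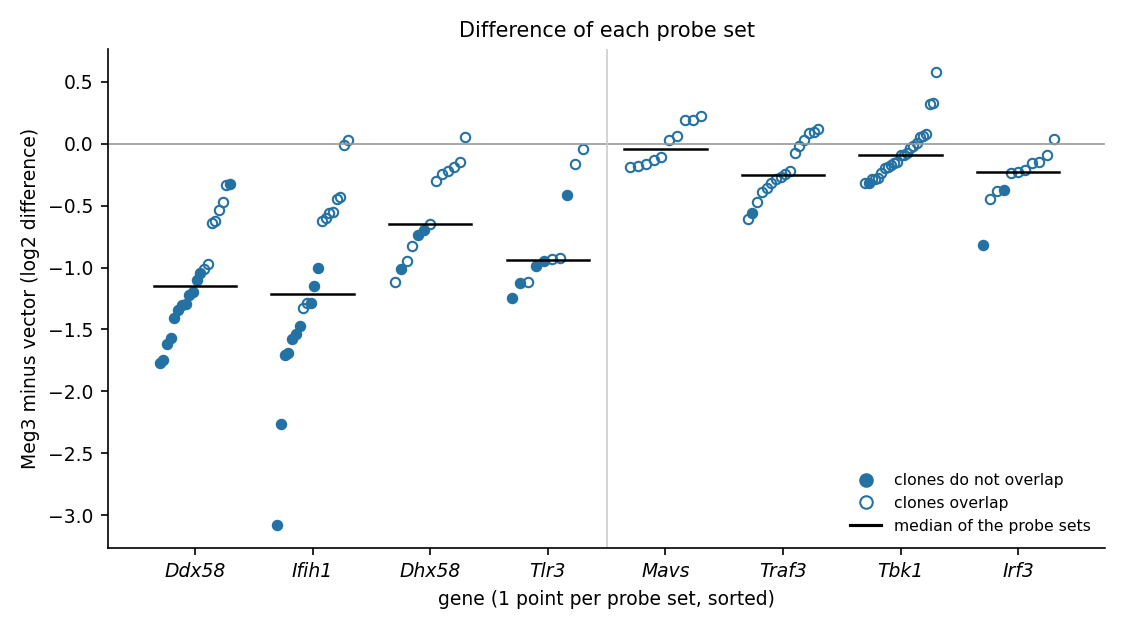
Log2 difference (Meg3 minus vector, vertical axis) of every probe set of the 8 genes, sorted within each gene; filled points are probe sets whose clones do not overlap, open points those whose clones do, and bars are the medians. Sensor medians run from -1.22 for Ifih1 to -0.64 for Dhx58, and downstream medians from -0.25 for Traf3 to -0.04 for Mavs.

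The size of the difference varied with the probe sets read. The 4 brighter Ifih1 probe sets, above the median of all probe sets (7.25), had a median difference of -0.59, against -1.30 for its 16 dimmer ones. For Ddx58 the 12 brighter ones had -1.26 and the 8 dimmer ones -1.06. For Tlr3 the 3 brighter ones had -0.99 and the 7 dimmer ones -0.92. The brightest single probe set gave -1.04 for Ddx58, -0.62 for Ifih1, -0.22 for Dhx58 and -1.12 for Tlr3, and none of these was called by limma.

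**Figure D3:**
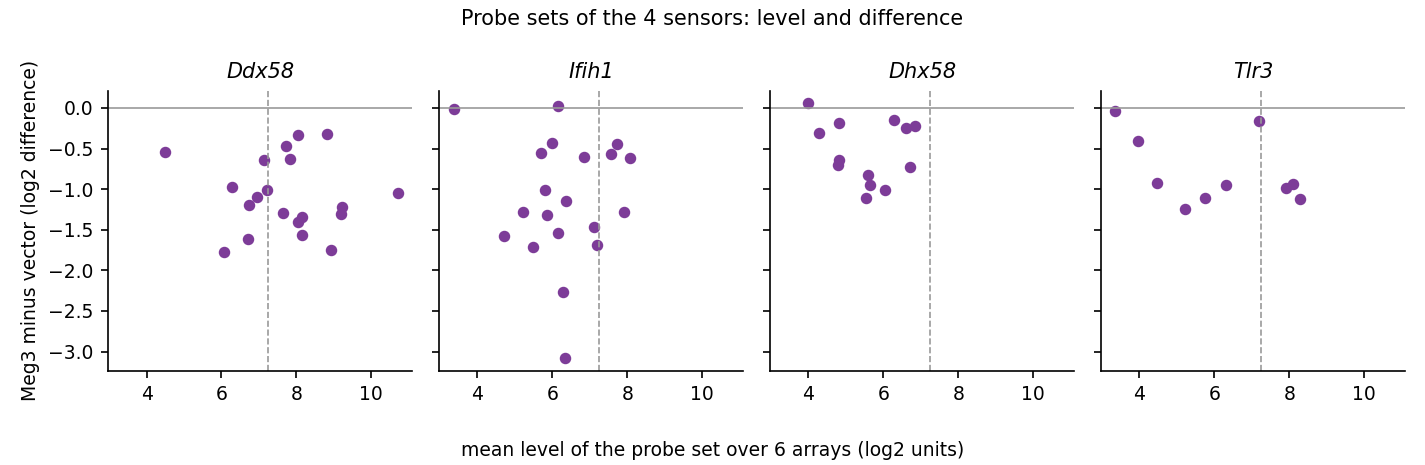
Each probe set of the 4 sensors, with its mean level over 6 arrays (log2 units, horizontal axis) and its Meg3 minus vector difference (log2, vertical axis); the dashed line is the median of all probe sets, 7.25. Ddx58 has 12 of 20 probe sets right of the line, Ifih1 4 of 20, Dhx58 0 of 13 and Tlr3 3 of 10.

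The wider pathway was read from 7 lists of 96 genes around the 8 members, of which 90 were measured. Of these, 2 were called lower and 0 higher by limma, where 0.465% of all genes were called lower and 0.201% higher. At an unadjusted p under 0.05, 16 were lower and 3 higher, against 4.28% and 2.68% of all genes. Their median log2 difference was -0.08, against 0.01 over all genes. The called genes were Ctsl and Oasl2.

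Among partners of the endosomal receptors, 1 of 11 was called, where 0.465% of all genes were called lower. Ctsl, the cathepsin that helps to cleave endosomal Toll-like receptors into their active form, read 11.20, 11.03 and 10.91 in the Meg3 cultures, against 11.88, 11.89 and 11.89 in the vector cultures. It was 1.79-fold lower (log2 difference -0.84, SE 0.12; limma adjusted p = 0.0250), and the call was lost in 4 of 6 fits that each left out 1 array (without Meg3 replicate 2 or 3 or vector replicate 1 or 3, adjusted p from 0.118 to 0.175), with the brightest probe set (0.382) and with the median of probe sets (0.0705). The adaptor gene of TLR3, Ticam1, picked once values were seen, had a difference of 0.07 (SE 0.20; limma adjusted p = 1.00).

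Among other RNA-binding antiviral genes, 1 of 13 was called, where 0.465% of all genes were called lower. The clones did not overlap for 5 lower and 1 higher, against 6.39% and 6.41% of all genes. Oasl2, an oligoadenylate synthetase-like gene induced by interferon, read 6.85, 7.10 and 7.09 in the Meg3 cultures, against 8.28, 7.75 and 8.45 in the vector cultures. It was 2.21-fold lower (log2 difference -1.14, SE 0.19; limma adjusted p = 0.0454). That call was lost on leaving out any single array except vector replicate 2, with adjusted p from 0.172 to 0.230, and with the brightest probe set (0.0540), the median of probe sets (0.132) or trend and robust estimation (0.0522). Values in the list ran both ways: Ifit3, read by 2 probe sets, differed by 0.55 (SE 0.15), and Ifit1 by -0.79 (SE 0.18). Neither was called (limma adjusted p = 0.289 for Ifit3 and 0.155 for Ifit1), and both were picked once values were seen.

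The other 5 lists had 0 called members by limma, where 0.465% of all genes were called lower and 0.201% higher. Cofactors of the helicase sensors (12 measured, median -0.13) had 2 lower and 1 higher at an unadjusted limma p under 0.05. Over all genes, 4.28% were lower and 2.68% higher at that threshold. The brightest cofactors were the RNA helicase genes Ddx3x (-0.12, SE 0.16) and Dhx9 (-0.13, SE 0.16). Trim25, which encodes the ubiquitin ligase of RIG-I and was picked once values were seen, had a difference of 0.01 (SE 0.19). The widest difference among the 90 genes was that of Anxa2, a membrane-binding annexin, chosen likewise. It read 6.82, 7.76 and 7.46 in the Meg3 cultures, against 6.49, 5.33 and 6.32 in the vector cultures (1.30, SE 0.34; limma adjusted p = 0.227).

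Adaptor complex and kinase genes (18 measured, median -0.02) had 2 lower and 0 higher at an unadjusted limma p under 0.05. At that threshold 4.28% of all genes were lower and 2.68% higher. The brightest of the list were Tab2 (0.19, SE 0.12) and Map3k7 (-0.02, SE 0.11). They encode a binding partner of the kinase TAK1 and that kinase itself, upstream of NF-kappaB. Ikbke, which encodes the kinase closest to TBK1 and was picked once values were seen, differed by 0.24 (SE 0.19). Transcription factors (11 measured, median -0.14) had 3 lower and 0 higher at the same threshold, beside those shares of all genes. The brightest, the coactivator gene Crebbp and the factor gene Atf2, differed by 0.16 (SE 0.17) and -0.01 (SE 0.11). Irf1 (-0.69, SE 0.15) and Irf9 (-0.68, SE 0.22), which encode factors of the interferon response and were picked once values were seen, were not called (limma adjusted p = 0.137 for Irf1 and 0.427 for Irf9).

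Negative regulators (15 measured, median -0.10) had 1 lower and 0 higher at an unadjusted limma p under 0.05. At that threshold 4.28% of all genes were lower and 2.68% higher. Pcbp2, which directs MAVS to degradation, differed by -0.05 (SE 0.17) and the autophagy receptor gene Tax1bp1 by -0.09 (SE 0.14). Interferon genes and genes of their receptors (10 measured, median -0.11) had 1 lower and 0 higher at the same threshold. Jak1, the receptor kinase gene, differed by 0.38 (SE 0.17) and the interferon lambda gene Il28a by -0.06 (SE 0.14). Il28a, read by 3 probe sets, averaged 8.72 in the Meg3 clone and 8.79 in the vector clone, above the median of all genes in both. Such a level alone does not show that the gene is expressed, since probe sets differ in brightness. Ifnb1, which encodes interferon beta and was picked once values were seen, averaged 4.56 ± 0.22 in the Meg3 clone and 4.56 ± 0.17 in the vector clone (SD, n = 3 each), below the median of all genes in both.

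**Figure D4:**
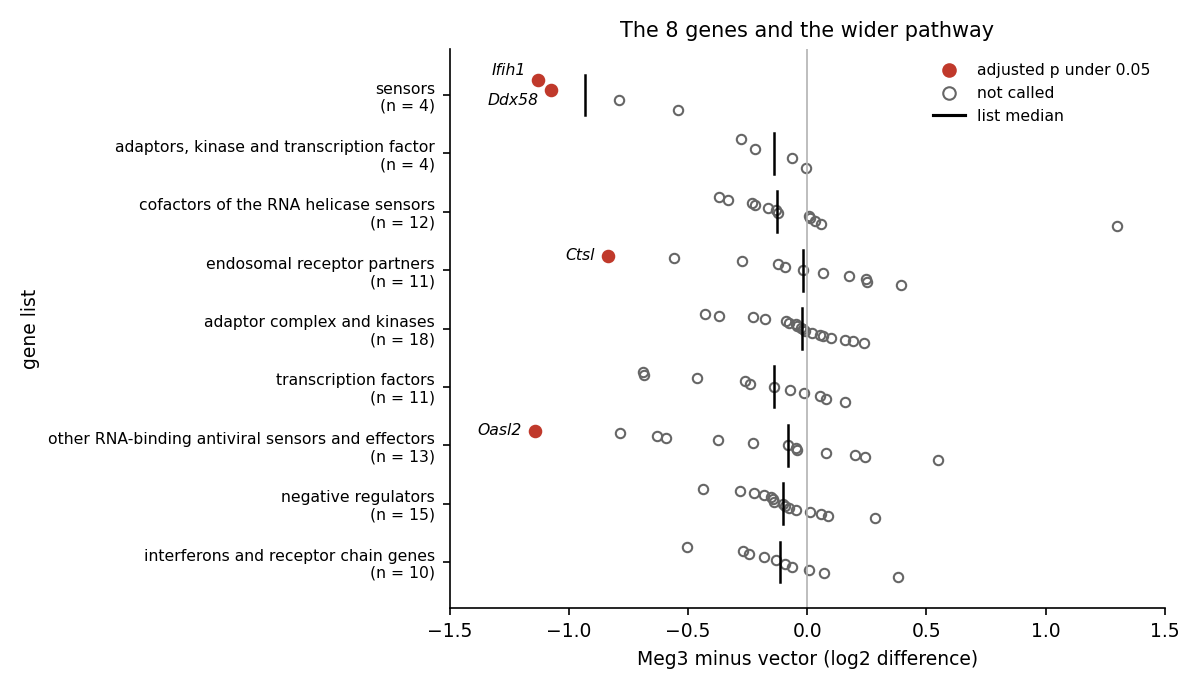
Log2 difference (Meg3 minus vector, horizontal axis) of each measured gene, by list; filled red points are called (limma adjusted p under 0.05) and bars are list medians. The called genes are Ddx58 and Ifih1 among the members, and Ctsl and Oasl2 among the 90 others.

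Genes whose pattern was most like that of each sensor were taken by Pearson correlation over the 6 arrays, among 1341 genes brighter than the median of all genes that ranged over at least 1 log2 unit. The arrays fall into 2 clones, so the correlation mostly reads the difference between clones and is given as a description. Ddx58 was matched best by Spats2 (r = 0.995), the homeobox gene Hoxb9 (0.992) and the class I heavy chain gene H2-K1 (0.990). Ifih1 was matched best by Klhl1 (0.998), Rtp4 (0.996) and the integrin gene Itgb8 (0.994). The best matches of Tlr3 were Itgb8 (0.990), Rtp4 (0.989) and the protocadherin gene Pcdhb3 (0.986). For Dhx58 they were Ddx58 (0.986), the death ligand gene Tnfsf10 (0.985) and the tubulin gene Tubb2b (0.985). Each of these 10 genes, Ddx58 among them, was called lower, where 0.465% of all genes were. Choosing genes by likeness to the sensors favours such calls, so the count is no separate result. As many as 36 genes passed an r of 0.95 with Ddx58, so the ranking picks among many close patterns.

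RNA sensors are also abundant in immune cells, so markers of other cells were read beside them. Of 9 leukocyte markers, 2 lay above the median of all genes, and their mean log2 value ranged from 5.57 to 5.65 in the Meg3 clone and from 5.63 to 5.71 in the vector clone. Of the 9, 4 were lower in the Meg3 clone, where 48.4% of all genes were. The clones did not overlap for 2 of these, Cd74 (-0.25) and the T cell gene Cd3e (-0.56), against 6.39% of all genes. The defining pan-leukocyte gene Ptprc averaged 5.24 in the Meg3 clone and 5.15 in the vector clone, and these 3 were picked once values were seen. Fibroblast markers ranged from 6.00 to 6.10 in the Meg3 clone and from 5.99 to 6.22 in the vector clone, and endothelial markers from 5.22 to 5.26 in the Meg3 clone and from 5.15 to 5.41 in the vector clone. Of these markers and those of islet cells, 0 of 33 were called by limma, where 0.465% of all genes were called lower and 0.201% higher. At an unadjusted limma p under 0.05, 2 of the 33 were lower in the Meg3 clone, against 4.28% of all genes. They were Cd3e and the beta cell gene Slc2a2 (-0.27), likewise picked. The part of other cells in the sensor differences was not tested.

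**Figure D5:**
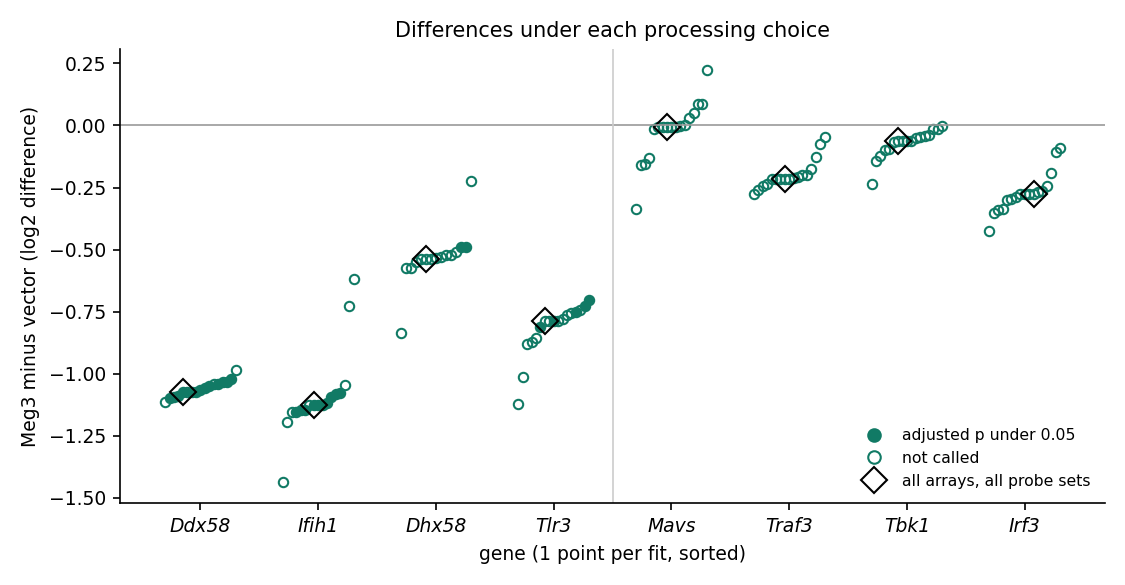
Log2 difference (Meg3 minus vector, vertical axis) of the 8 genes under every processing choice, 1 point per fit, sorted within each gene; filled points are called (limma adjusted p under 0.05), open points are not, and diamonds mark the values reported above. Ddx58 stays between -1.11 and -0.98, Ifih1 between -1.44 and -0.62, and Mavs falls on both sides of 0.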

How the data were processed

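RNA of 6 cultures, 3 of a Meg3 clone and 3 of a vector clone, was measured on Affymetrix exon-level arrays after biotin labelling of 6 µg each. The values are log2 intensities by probe set, as the authors deposited them. RMA and Partek are the tools in the submitters' processing notes, with versions not given in the sources used here. RMA scales the probes of arrays to a common distribution, so shifts of all genes would largely not show. The deposited probe set values still differed between arrays, with medians from 7.02 to 7.19. Of 241419 probe sets, 212097 had 1 symbol in the array annotation, 4475 several and 24847 none. A gene value is the mean log2 value of its probe sets with 1 symbol (20416 genes, median 8 probe sets). Symbols are those of the array, with 2 list genes found through synonyms in GRCm38.p6.

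limma 3.58.1 under R 4.3.3 was fitted to the 6 arrays (lmFit, then eBayes) with neither covariates nor a filter on dim genes, and gave two-sided tests of Meg3 minus vector, with Benjamini-Hochberg adjustment over all genes or all probe sets. Errors beside log2 differences are its moderated standard errors. Exact permutation of 3 against 3 arrays cannot give a p under 0.1. Simulated gene values with known changes were used to test the limma fit, and the other steps were not tested in this way. No depth exists for arrays, and their number limits the precision. The members, the lists and the naming rule were chosen with earlier results of these data known. The rule named all members, Meg3 as the transfected gene, and the 3 genes most like each sensor. From each list it named the 2 called genes with the largest differences in each direction, or the 2 brightest where none was called. Every other gene is marked as picked once values were seen. Alternatives were a replicate block, array centring, repeated quantile normalization, no genes among the dimmest 30%, only the brightest probe set, bright probe sets only, the median of probe sets, eBayes with trend and robust estimation, array weights, and leaving out each array. The fit without both arrays that stood apart, and the shorter motif, were chosen after seeing the data. List genes without a probe set of 1 symbol were not analysed here. A further promoter motif that was searched is not reported here.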

Additional observations from a re-analysis of the deposited data

How the results depend on the processing

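The signs of Ddx58, Ifih1, Dhx58, Tlr3, Traf3, Tbk1 and Irf3 were the same under all alternatives run, but calls were not stable. Ddx58 lost its call with the replicate block (-1.08, limma adjusted p = 0.0892), the brightest probe set (-1.04) and the median of its probe sets (-0.98), and Ifih1 with the replicate block (-1.13, limma adjusted p = 0.0912), the brightest probe set (-0.62), bright probe sets only (-0.73) and the median (-1.44). Dhx58 was called with array weights (-0.49) and without both arrays that stood apart (-0.49). Tlr3 was called with quantile normalization (-0.81), trend and robust estimation (-0.79), array weights (-0.75) and without both those arrays (-0.70). Mavs turned positive with centring (0.0036), quantile normalization (0.032), the brightest probe set (0.22), bright probe sets only (0.086) and without vector replicate 1 (0.087) or vector replicate 3 (0.052), called in none of these fits. Leaving out 1 array at a time gave -1.11 to -1.02 for Ddx58, -1.19 to -1.04 for Ifih1, -0.88 to -0.73 for Tlr3, -0.58 to -0.51 for Dhx58, -0.16 to 0.09 for Mavs, -0.28 to -0.18 for Traf3, -0.14 to -0.0033 for Tbk1 and -0.43 to -0.11 for Irf3. Each sensor in the fit had a more negative difference than each downstream gene in every fit except that with the brightest probe set (Dhx58 -0.22, Tbk1 -0.24), and Dhx58 was not in the fits without dim genes or with bright probe sets only.

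Members called lower numbered 2 with all arrays, 0 with the block, the brightest probe set or the median, 1 with bright probe sets only, 4 (the sensors) with array weights or without both arrays, and 0 to 3 with 1 array left out. Over all genes 95 were lower and 41 higher, against 19 and 11 with the block, 28 and 12 with the brightest probe set, 42 and 16 with the median, 869 and 377 with array weights, 819 and 292 without both arrays, 14 to 271 and 8 to 78 with 1 array left out, and 63 lower with bright probe sets only. List genes called lower numbered 2, against 0 with the block, the brightest probe set or the median, 1 with trend and robust estimation, 14 with array weights, 12 without both arrays and 0 to 5 with 1 array left out; 3 were called higher with array weights and 1 without both arrays. The cause was not tested. Array weights used the gene-by-gene method, since the default estimate did not converge. The replicate numbers were not taken as pairs: deviations from the clone means, over genes, correlated at -0.614, -0.628 and 0.276 for numbers 1, 2 and 3, and at 0.654 for Meg3 replicate 1 with vector replicate 2, 0.604 for Meg3 replicate 2 with vector replicate 1 and 0.504 for Meg3 replicate 2 with vector replicate 3, so the block rests on shared numbers only. Member probe sets called numbered 0 in each fit run. With log2 values alone, signal over background is unknown. Dhx58, Tlr3 and Ifih1 had means over the 6 arrays below the median of all gene values (6.65). Ifih1 lay below that median in the Meg3 clone only (5.73, against 6.86 in the vector clone).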

Other observations

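Cytosolic DNA sensing shares TBK1 and IRF3 with RNA sensing. The genes named below, of DNA sensing and of Toll-like receptors, were taken from the lists after their values were seen. By limma, 0 of them were called, where 0.465% of all genes were called lower and 0.201% higher. Mb21d1, now called Cgas, which encodes the cytosolic DNA sensor, averaged 6.01 in the Meg3 clone and 6.44 in the vector clone. Its log2 difference was -0.43 (SE 0.13, limma adjusted p = 0.331). All 3 Meg3 cultures lay below all 3 vector cultures, as for 6.39% of all genes. Tmem173, now called Sting1, the adaptor of that sensor, differed by -0.23 (SE 0.23; limma adjusted p = 1.00). The endosomal DNA receptor gene Tlr9 differed by 0.18 (SE 0.21; limma adjusted p = 1.00). The single-stranded RNA receptor genes Tlr7 and Tlr8 averaged 4.41 and 4.56 in the Meg3 clone, against 4.16 and 4.65 in the vector clone, below the median of all genes (6.65) in both. Cd14, a coreceptor of Toll-like receptors, was also dim and differed by 0.39 (SE 0.11, limma adjusted p = 0.314). Its groups lay apart with Meg3 higher, as for 6.41% of all genes.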
